A study of Mus musculus with 4 samples.

Results

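The genes described here build and police the kinetochore, the protein assembly that ties each chromosome to the spindle. They were taken by name from the expression tables, as every symbol made of Cenp followed only by letters, which gave 17 genes, and 25 further named genes of the outer kinetochore, the spindle checkpoint, the chromosomal passenger complex and the shugoshins. All 42 were found among the 23235 symbols of each table, none was at 0 in any library, and all 42 had a mean of 1 FPKM or more over the libraries. FPKM counts the sequenced fragments of a gene relative to the length of its transcript and to all mapped fragments of the library, so levels of different genes are compared per length.

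RNA of primary fibroblasts, grown from minced embryos of C57BL/6 mice, was selected on oligo(dT) beads and sequenced in 4 libraries, with 1 library for each genotype. The genotypes are given by the labels as G3 Gadd45-/-Terc-/- (dKO), deficient for both genes, G3 Terc-/-, deficient for the RNA template of telomerase, Gadd45-/-, and Wild-type. G3 stands for the third generation, and the series' design text names the first gene as Gadd45a, a stress-induced gene linked to DNA repair and demethylation. No agent or treatment is named in the labels, and how many embryos went into each culture is not given in the sources used here. The design asks what the Gadd45a label goes with in cells with and without Terc, and what G3 Terc deficiency goes with under each Gadd45a label. Every difference below lies between single cultures without a replicate check, so no error, test or p-value is given for it.

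The libraries had an estimated 19500000 to 19900000 fragments each. Gadd45a went against its labels, at 45.1 FPKM in the library labelled dKO against 31.4 FPKM in G3 Terc-/-, and at 33.9 FPKM in the library labelled Gadd45-/- against 22.9 FPKM in wild-type, and both libraries are therefore called by their labels throughout. Terc was listed at 0 in both G3 libraries, at 0.26 FPKM in the library labelled Gadd45-/- and at 0.53 FPKM in wild-type, a few fragments at most. The library labelled Gadd45-/- also differed in the 2 genes used as a check of sex. Y-linked Ddx3y stood there at 16.4 FPKM against 0.011 to 0.023 FPKM in the other libraries, and X-linked Xist at 0.154 FPKM against 24.0 to 34.1 FPKM. Every comparison with that library therefore also holds a sex-linked difference, whose part was not tested. All 8 fibroblast markers were present in every library. Their summed level was 10275 FPKM in the library labelled dKO, 5710 FPKM in G3 Terc-/-, 12007 FPKM in the library labelled Gadd45-/- and 11315 FPKM in wild-type. Summed markers of blood cells (6 genes) lay between 3.01 and 7.11 FPKM, of endothelium (5 genes) between 1.13 and 1.49 FPKM, of epithelium (5 genes) between 1.67 and 8.69 FPKM and of red cells (4 genes) at 0.28 FPKM or less, and Ptprc, Pecam1 and Epcam were each at or under 0.109 FPKM in every library. The muscle and neural lists (4 genes found for each), with sums of 38.4 to 120 FPKM and of 26.1 to 77.1 FPKM, were carried by 1 gene each, Acta1 and Tubb3. Their other markers, Myog, Myod1, Ckm, Sox2, Sox10 and Gfap, stayed at or under 0.911 FPKM.

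A kinetochore forms on nucleosomes that carry the histone variant CENP-A, which a network of constitutive centromere proteins reads and bridges to the MIS12, NDC80 and KNL1 complexes, where microtubules attach. Kinetochores without attached microtubules make an inhibitor of CDC20, the activator of the anaphase-promoting complex, and so hold the cell in mitosis. Many of these genes are known to have their highest RNA levels in G2 and mitosis, so their RNA in a culture can depend on the share of dividing cells.

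In G3 Terc-/- 32 of the 42 genes were lower than in wild-type by the size rule, a difference of log2(FPKM + 1) of -1 or less, which is a 2-fold difference of FPKM + 1. None was higher by that rule. Among the 11589 genes with a mean of 1 FPKM or more, 6.24% were lower and 9.93% higher. The median difference of the 42 genes was -1.51, against 0.006 over all those genes. The summed level of the 42 genes was 434 FPKM in the library labelled dKO, 334 FPKM in G3 Terc-/-, 731 FPKM in the library labelled Gadd45-/- and 755 FPKM in wild-type. Abundant genes that were not lower, such as Cenpb at 91.5 FPKM in G3 Terc-/-, weigh heavily in these sums. The 32 lower genes, chosen by this same difference, summed to 107 FPKM in G3 Terc-/- and 509 FPKM in wild-type.

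Between the G3 libraries 9 of the 42 genes were higher in the library labelled dKO than in G3 Terc-/-, namely Plk1, Cdc20, Cenpa, Birc5, Cenpq, Cdca8, Cenpm, Aurkb and Aurka, and none was lower. Among all 11589 genes 1.52% were higher and 4.78% lower. With quantile-normalised values 13 of the 42 were higher and none lower, against 2.36% and 4.25% of all genes. The median of the 42 genes was 0.61, against -0.031 over all genes, and 37 of the 42 had a positive difference, against 46.2% of all genes. The library labelled dKO nevertheless lay below the library labelled Gadd45-/-, where 14 of the 42 genes were lower against 2.35% of all genes, none was higher against 2.49%, and the median was -0.79 against -0.010. It also lay below wild-type, where 17 were lower against 2.85% of all genes, none was higher against 3.81%, and the median was -0.92 against -0.043. The counts depend on the pseudocount. With 5 FPKM in place of 1 FPKM, 16 of the 42 genes were lower in G3 Terc-/- than in wild-type, against 2.84% of all genes. Then 3 were higher in the library labelled dKO than in G3 Terc-/-, against 0.613%. With 5 FPKM only 2 were lower in the library labelled dKO than in the library labelled Gadd45-/- and 2 lower than in wild-type, against 0.725% and 1.1% of all genes. With 0.1 FPKM 20 and 24 were, against 3.85% and 4.43%.

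The library labelled Gadd45-/- was close to wild-type, with none of the 42 genes higher and none lower by the size rule, against 0.337% and 0.198% of all genes. Their median difference was -0.09, against -0.027 over all genes, and the range ran from -0.46 for Cenpp to 0.31 for Cenpw. In 37 of the 42 genes the library labelled Gadd45-/- held between 80% and 125% of the wild-type level, as it did in 84.3% of all genes. The comparison of G3 Terc-/- with wild-type and that of the library labelled dKO with the library labelled Gadd45-/- share no library. All 14 genes lower in the second were among the 32 lower in the first, which is 100% of the shorter list and 43.8% of the longer one. Since 76.2% of the 42 genes were lower in the first, most of any 14 of them would be in both lists. Over all 11589 genes 205 were lower in both, which is 75.4% of the 272 lower in the second and 28.4% of the 723 lower in the first. Only 6.24% of all genes were lower in the first, so the 100% and the 75.4% cannot be compared directly.

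**Figure D1:**
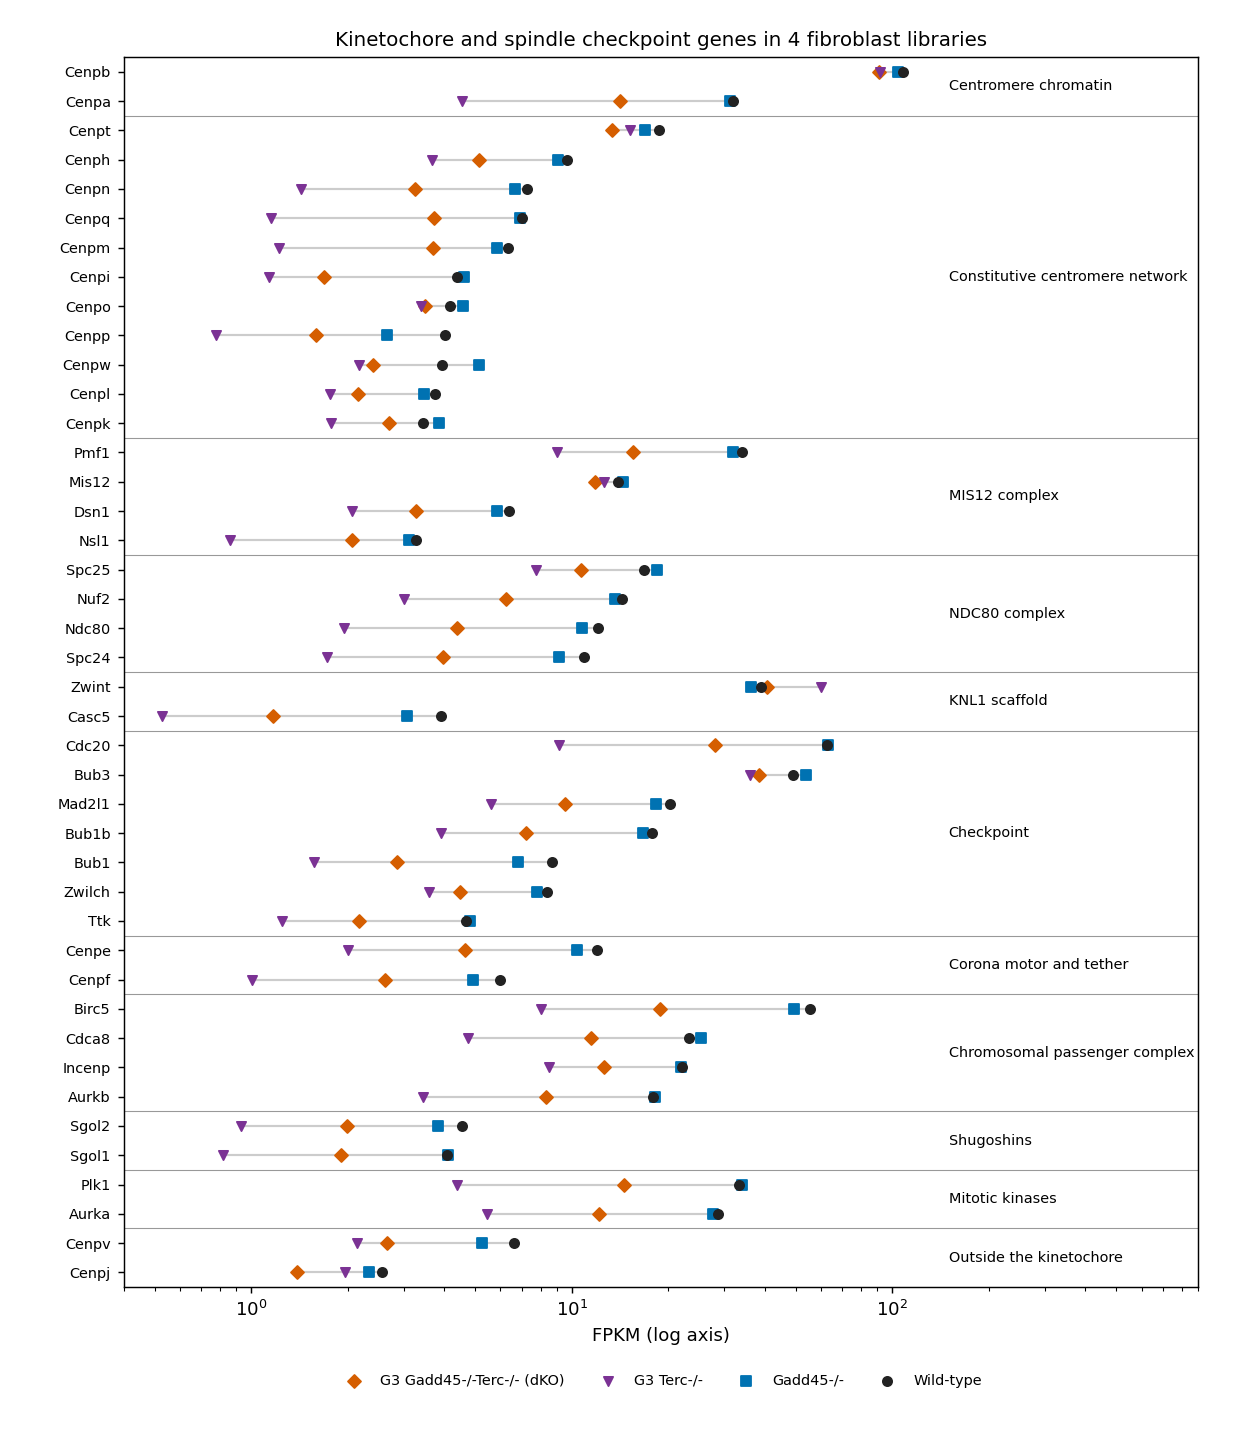
FPKM of the 42 kinetochore and spindle checkpoint genes (rows, grouped by role, log axis) in the library labelled dKO (diamonds), G3 Terc-/- (triangles), the library labelled Gadd45-/- (squares) and wild-type (circles), 1 library each, with a grey line from the lowest to the highest value. In 37 of the 42 rows the triangle stands leftmost and the diamond next to it, below both circle and square.

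The 4 libraries stood in nearly the same order from gene to gene. G3 Terc-/- was lowest in 37 genes, and in those same 37 the library labelled dKO came next, below both libraries with Terc, an order found in 25.4% of all 11589 genes. Both G3 libraries lay below both others in 41 genes, with Zwint as the exception, and in 35.2% of all genes. Wild-type was highest in 28 of the 42 genes and in 30.8% of all genes, and the library labelled Gadd45-/- in 13 of the 42 and in 14.7% of all genes. Fewer dividing cells and less RNA of these genes per dividing cell cannot be told apart in bulk RNA.

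Other genes of dividing cells were lower in the same library. The proliferation marker Mki67 stood at 8.69 FPKM in the library labelled dKO, 2.97 FPKM in G3 Terc-/-, 24.1 FPKM in the library labelled Gadd45-/- and 27.9 FPKM in wild-type. Topoisomerase Top2a stood at 18.8 FPKM in the library labelled dKO, 8.09 FPKM in G3 Terc-/-, 42.5 FPKM in the library labelled Gadd45-/- and 45.2 FPKM in wild-type. Between G3 Terc-/- and wild-type, Mki67 had a difference of -2.87 and Top2a of -2.35. The mitotic cyclin Ccnb1 had a difference of -2.89 and the mitotic kinase Cdk1 of -1.52. The median of the 42 genes, -1.51, lay near Cdk1, the smallest of these differences, and was smaller in size than the others. That place depends on low genes, whose differences the pseudocount shrinks. For the 23 genes with a mean of 5 FPKM or more the median was -1.94. With a pseudocount of 0.1 FPKM the median of the 42 was -2.03, and the single markers were not recomputed. Of 24 replication licensing and fork genes 18 (75.0%, against 6.24% of all genes) were lower in G3 Terc-/- than in wild-type, with a median of -1.52. None was higher, against 9.93% of all genes. None of those 24 passed the size rule between the G3 libraries, where 1.52% of all genes were higher and 4.78% lower. At shares this small, finding none among 24 genes says little. The median of the 24 there was 0.51, against -0.031 over all genes. The part that the share of dividing cells has in the differences of the 42 genes was not tested.

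**Figure D2:**
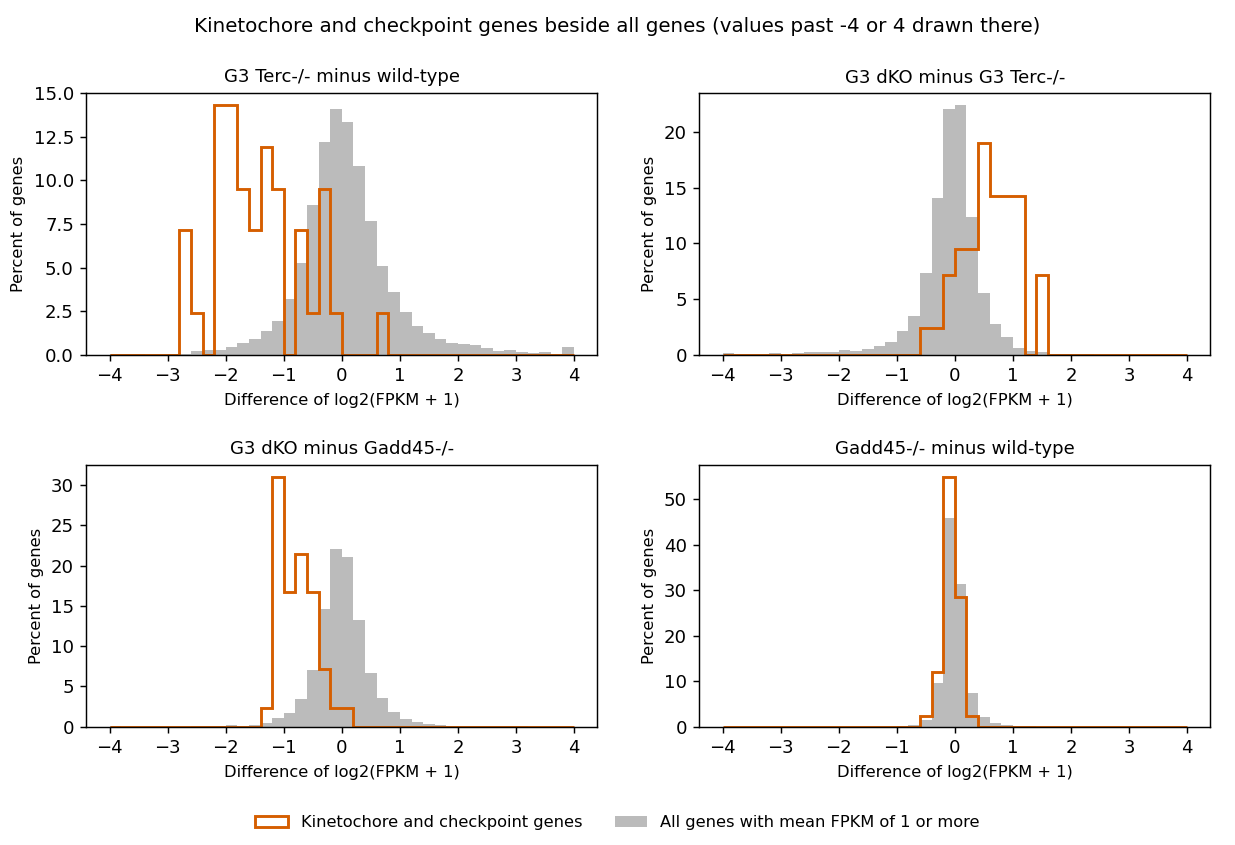
Distribution of the difference of log2(FPKM + 1) between single libraries, as percent of genes, for the 42 kinetochore and checkpoint genes (orange outline) and the 11589 genes with a mean of 1 FPKM or more (grey). The outline lies left of the grey mass in G3 Terc-/- minus wild-type (median -1.51) and in dKO minus Gadd45-/- (median -0.79), right of it in dKO minus G3 Terc-/- (median 0.61), and over it in Gadd45-/- minus wild-type (median -0.09).

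Promoters are shown for genes with large differences between G3 Terc-/- and wild-type and for a gene near 0. Many mitotic genes are known to carry a cell cycle homology region (CHR) near the start site, bound by the DREAM complex in resting cells and by B-MYB and FOXM1 complexes in dividing ones, together with CCAAT boxes, bound by NF-Y. RefSeq promoter windows of build GRCm38.p6, from 250 bases before to 50 after the annotated start, were on hand for 37 of the 42 genes, in 41 windows. Windows follow for the 3 genes with the most negative differences between G3 Terc-/- and wild-type whose windows hold both motifs, and for Mis12, which had the smallest difference. They read 5′ to 3′ on the gene's strand, and capitals mark the CHR core TTTGAA and the CCAAT box on either strand.
Plk1: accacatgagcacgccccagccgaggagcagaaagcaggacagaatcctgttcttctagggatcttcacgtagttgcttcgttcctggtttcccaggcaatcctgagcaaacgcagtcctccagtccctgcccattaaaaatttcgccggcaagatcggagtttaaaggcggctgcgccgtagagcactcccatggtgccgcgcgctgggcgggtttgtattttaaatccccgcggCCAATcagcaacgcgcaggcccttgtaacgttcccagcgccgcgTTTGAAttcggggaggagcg
Cdc20: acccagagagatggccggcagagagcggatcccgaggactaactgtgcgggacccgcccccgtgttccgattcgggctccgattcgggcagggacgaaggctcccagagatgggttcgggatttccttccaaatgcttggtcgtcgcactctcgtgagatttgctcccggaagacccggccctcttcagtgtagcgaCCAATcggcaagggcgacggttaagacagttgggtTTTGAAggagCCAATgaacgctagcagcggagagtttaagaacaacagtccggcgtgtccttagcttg
Cenpa: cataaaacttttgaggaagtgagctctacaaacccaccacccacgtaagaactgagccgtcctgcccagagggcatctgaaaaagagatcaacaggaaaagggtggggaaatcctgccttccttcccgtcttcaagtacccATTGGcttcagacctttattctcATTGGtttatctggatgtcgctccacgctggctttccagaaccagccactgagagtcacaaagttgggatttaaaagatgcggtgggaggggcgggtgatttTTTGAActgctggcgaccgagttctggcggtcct
Mis12: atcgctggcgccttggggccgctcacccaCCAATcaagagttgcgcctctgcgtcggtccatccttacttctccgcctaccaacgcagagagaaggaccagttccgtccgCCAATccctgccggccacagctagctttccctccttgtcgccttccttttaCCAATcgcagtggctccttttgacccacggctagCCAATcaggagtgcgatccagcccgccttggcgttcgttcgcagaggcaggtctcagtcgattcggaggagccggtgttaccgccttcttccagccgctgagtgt
The windows lie at chr7:122159185-122159484 on the plus strand for Plk1, chr4:118437294-118437593 on the minus strand for Cdc20, chr5:30666636-30666935 on the plus strand for Cenpa and chr11:71019361-71019660 on the plus strand for Mis12. With the start counted as 0, TTTGAA begins at 30 in Plk1, at -18 in Cdc20 and at 16 in Cenpa. CCAAT or its complement begins at -14 in Plk1, at -53 and -8 in Cdc20, and at -109 and -86 in Cenpa. Mis12 holds 4 CCAAT boxes and no TTTGAA in its window. It was chosen without regard to motifs, while Plk1, Cdc20 and Cenpa had to hold both. The printed windows therefore cannot show whether the motifs go with the differences. Birc5, with a difference of -2.65, was passed over because its window holds neither motif. Bub3, Cenpl and Cenpw hold both and were not lower by the size rule.

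Over all 41 windows, searched on both strands, TTTGAA was in 41.5%, against 17.9% of the 32851 windows of the RefSeq table. CCAAT was in 70.7% against 37.4%, and both motifs together were in 36.6% against 6.95%. The CHR variant TTTAAA was in 22.0% against 13.2%, and 1 of the E2F cores TTTCCCGC, TTTGGCGC, TTTCGCGC and TTTGCCGC was in 9.76% against 2.26%. The 17 matches to TTTGAA were 16 sites, since 2 overlapping windows of Bub3 hold the same site, and 14 of the sites began within 50 bases of an annotated start, 10 of them after it. Among genes lower in G3 Terc-/- by the size rule 13 of 28 windows (46.4%) held TTTGAA, and among the others 4 of 13 (30.8%), counting both windows of Bub3. By gene these were 13 of 27 and 3 of 10, namely Bub3, Cenpl and Cenpw. For CCAAT the same split gave 20 of 28 windows (71.4%) and 9 of 13 (69.2%), which is nearly equal. For the E2F cores it gave 2 of 28 (7.14%) and 2 of 13 (15.4%), the other way round. For TTTAAA it gave 7 of 28 and 2 of 13, and for TTTGAA together with CCAAT 11 of 28 and 4 of 13. The 5 genes without a window, Aurkb, Incenp, Nsl1, Spc24 and Zwilch, were all lower by the size rule. A match gives letters only and shows no binding, and these shares were not tested.

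**Figure D3:**
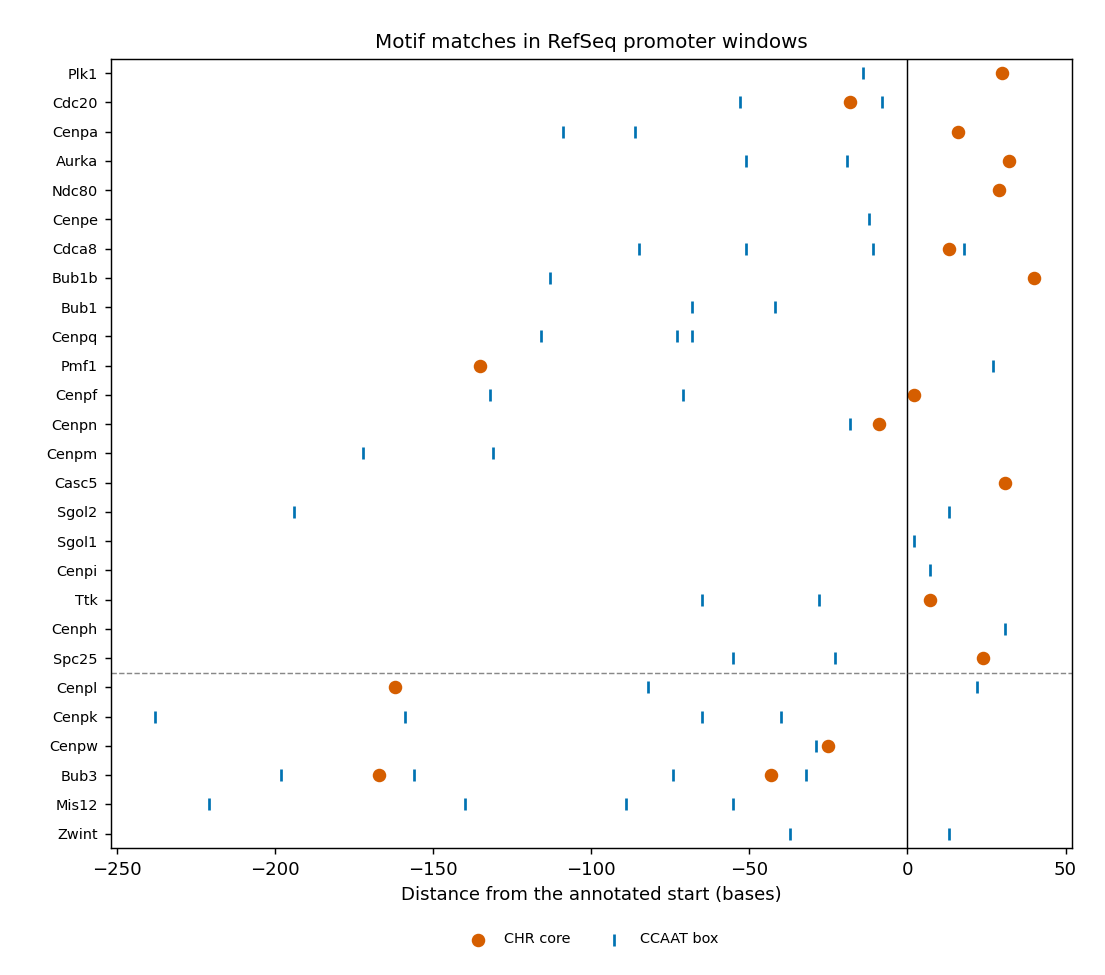
Start of each match to the CHR core (circles) and the CCAAT box (bars) in RefSeq promoter windows, in bases from the annotated start, with matches of several windows of a gene drawn on 1 row (both circles of Bub3 are 1 site seen from 2 starts). Genes run from the most negative difference between G3 Terc-/- and wild-type at the top, the dashed line divides those lower by the size rule from the rest, and 14 of 17 circles lie within 50 bases of the start.

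At the centromere itself, the 2 chromatin genes differed from each other. Cenpa, the histone H3 variant that marks the centromere, stood at 14.2 FPKM in the library labelled dKO, 4.56 FPKM in G3 Terc-/-, 31.3 FPKM in the library labelled Gadd45-/- and 32 FPKM in wild-type. G3 Terc-/- thus held 14.3% of the wild-type level (difference -2.57), and the library labelled dKO held 3.10 times the G3 Terc-/- level (difference 1.45). Cenpb, which binds a short motif of centromeric satellite DNA, stood at 91.1 FPKM in the library labelled dKO, 91.5 FPKM in G3 Terc-/-, 104 FPKM in the library labelled Gadd45-/- and 108 FPKM in wild-type. It was the most abundant of the 42 genes in every library and had a difference of -0.24 between G3 Terc-/- and wild-type and of -0.01 between the G3 libraries. Of 5 genes for loading CENP-A reported here, 2 were lower in G3 Terc-/- than in wild-type, against 6.24% of all genes. The median of the 5 was -0.67. Oip5 stood at 0.60 FPKM in G3 Terc-/- against 2.76 FPKM in wild-type, while the histone chaperones Rbbp4 and Rbbp7 had differences of -0.63 and -0.55.

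Among 11 measured genes of the constitutive centromere network, 6 were lower in G3 Terc-/- than in wild-type, with a median of -1.20. Cenpq, of the CENP-O subcomplex, stood at 3.72 FPKM in the library labelled dKO, 1.15 FPKM in G3 Terc-/-, 6.91 FPKM in the library labelled Gadd45-/- and 6.99 FPKM in wild-type. Cenpn, which reads the CENP-A nucleosome, stood at 3.24 FPKM in the library labelled dKO, 1.43 FPKM in G3 Terc-/-, 6.66 FPKM in the library labelled Gadd45-/- and 7.24 FPKM in wild-type. Cenpm, of the CENP-H and CENP-I subcomplex, stood at 3.70 FPKM in the library labelled dKO, 1.22 FPKM in G3 Terc-/-, 5.86 FPKM in the library labelled Gadd45-/- and 6.35 FPKM in wild-type. These 3 genes held 16.4% to 19.7% of their wild-type level in G3 Terc-/-. Cenpq and Cenpm were also higher in the library labelled dKO than in G3 Terc-/- by the size rule, with differences of 1.14 and 1.08.

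Cenpi and Cenph belong to the same subcomplex as Cenpm. Cenpi stood at 1.69 FPKM in the library labelled dKO, 1.14 FPKM in G3 Terc-/-, 4.62 FPKM in the library labelled Gadd45-/- and 4.40 FPKM in wild-type, and was the 1 network gene lower in the library labelled dKO than in the library labelled Gadd45-/- (difference -1.07). Cenph stood at 5.13 FPKM in the library labelled dKO, 3.67 FPKM in G3 Terc-/-, 9.09 FPKM in the library labelled Gadd45-/- and 9.70 FPKM in wild-type. Cenpp, of the CENP-O subcomplex, stood at 1.59 FPKM in the library labelled dKO, 0.78 FPKM in G3 Terc-/-, 2.65 FPKM in the library labelled Gadd45-/- and 4.04 FPKM in wild-type. It had the fewest fragments of the 42 genes in G3 Terc-/-, an estimated 14, and it overlaps other genes including Ippk, with which an annotated transcript shares 317 identical bases, so that its value is uncertain.

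The other 5 network genes did not pass the size rule in any comparison. Cenpt, whose histone fold binds centromeric DNA and which recruits NDC80, stood at 13.4 FPKM in the library labelled dKO, 15.2 FPKM in G3 Terc-/-, 16.9 FPKM in the library labelled Gadd45-/- and 18.8 FPKM in wild-type. Its partner Cenpw stood at 2.41 FPKM in the library labelled dKO, 2.17 FPKM in G3 Terc-/-, 5.13 FPKM in the library labelled Gadd45-/- and 3.95 FPKM in wild-type, but 7 annotated loci match it at 95% identity or more over 333 to 345 bases and leave its value uncertain. The histone-fold partners thus had differences of -0.29 and -0.64 between G3 Terc-/- and wild-type.

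Cenpo stood at 3.50 FPKM in the library labelled dKO, 3.39 FPKM in G3 Terc-/-, 4.58 FPKM in the library labelled Gadd45-/- and 4.18 FPKM in wild-type, a value that is uncertain because 924 bases are shared with a transcript of the overlapping gene Adcy3. Cenpl, the partner of Cenpn, stood at 2.15 FPKM in the library labelled dKO, 1.76 FPKM in G3 Terc-/-, 3.47 FPKM in the library labelled Gadd45-/- and 3.76 FPKM in wild-type. Cenpk, of the CENP-H and CENP-I subcomplex, stood at 2.69 FPKM in the library labelled dKO, 1.78 FPKM in G3 Terc-/-, 3.87 FPKM in the library labelled Gadd45-/- and 3.45 FPKM in wild-type. The direct neighbour Cenpc1, which the naming rule leaves out because of its digit, stood at 8.14 FPKM in the library labelled dKO, 9.89 FPKM in G3 Terc-/-, 10.0 FPKM in the library labelled Gadd45-/- and 10.7 FPKM in wild-type. Inner kinetochore genes near their wild-type level in G3 Terc-/- thus included Cenpc1 and Cenpt, whose products both link the inner to the outer kinetochore.

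The MIS12 complex joins the inner to the outer kinetochore, and 3 of its 4 genes were lower in G3 Terc-/- than in wild-type. Mis12 stood at 11.8 FPKM in the library labelled dKO, 12.6 FPKM in G3 Terc-/-, 14.5 FPKM in the library labelled Gadd45-/- and 14 FPKM in wild-type. Pmf1 stood at 15.5 FPKM in the library labelled dKO, 9 FPKM in G3 Terc-/-, 31.9 FPKM in the library labelled Gadd45-/- and 34.1 FPKM in wild-type. Dsn1 stood at 3.28 FPKM in the library labelled dKO, 2.07 FPKM in G3 Terc-/-, 5.87 FPKM in the library labelled Gadd45-/- and 6.40 FPKM in wild-type, and Nsl1 at 2.06 FPKM in the library labelled dKO, 0.86 FPKM in G3 Terc-/-, 3.11 FPKM in the library labelled Gadd45-/- and 3.27 FPKM in wild-type. Mis12 held 89.8% of its wild-type level in G3 Terc-/-, against 26.3% to 32.4% for its partners, so subunits of 1 complex had unequal differences. None of the 4 passed the size rule between the G3 libraries.

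All 4 genes of the NDC80 complex, which grips the microtubule, were lower in G3 Terc-/- than in wild-type, with a median of -2.03. Ndc80 stood at 4.39 FPKM in the library labelled dKO, 1.95 FPKM in G3 Terc-/-, 10.8 FPKM in the library labelled Gadd45-/- and 12.1 FPKM in wild-type. Nuf2, its partner at the microtubule end, stood at 6.26 FPKM in the library labelled dKO, 2.99 FPKM in G3 Terc-/-, 13.7 FPKM in the library labelled Gadd45-/- and 14.4 FPKM in wild-type. Spc24, of the end anchored in the kinetochore, stood at 3.98 FPKM in the library labelled dKO, 1.73 FPKM in G3 Terc-/-, 9.13 FPKM in the library labelled Gadd45-/- and 10.9 FPKM in wild-type. These 3 genes were also lower in the library labelled dKO than in the library labelled Gadd45-/-, with differences from -1.13 to -1.02.

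Spc25, the partner of Spc24, stood at 10.7 FPKM in the library labelled dKO, 7.74 FPKM in G3 Terc-/-, 18.5 FPKM in the library labelled Gadd45-/- and 16.8 FPKM in wild-type, a smaller difference of -1.03 between G3 Terc-/- and wild-type. The highest of the 4 FPKM values was 2.70 times the lowest in the library labelled dKO, 4.48 times in G3 Terc-/-, 2.03 times in the library labelled Gadd45-/- and 1.55 times in wild-type. RNA levels of this equimolar complex thus lay closest together in wild-type and farthest apart in G3 Terc-/-. Spc25 accounts for the top value in every library.

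The KNL1 group, Casc5 and Zwint, held the lowest level of the 42 genes in G3 Terc-/- and the highest but Cenpb. Casc5, the symbol used in the tables for the scaffold gene now called Knl1, stood at 1.17 FPKM in the library labelled dKO, 0.53 FPKM in G3 Terc-/-, 3.06 FPKM in the library labelled Gadd45-/- and 3.91 FPKM in wild-type, and its G3 Terc-/- level was 13.6% of wild-type. Zwint, a KNL1-bound protein that helps to bring the ROD-ZWILCH-ZW10 complex to kinetochores, stood at 40.6 FPKM in the library labelled dKO, 60.1 FPKM in G3 Terc-/-, 36.4 FPKM in the library labelled Gadd45-/- and 39 FPKM in wild-type. It was the 1 gene of the 42 with more RNA in G3 Terc-/- than in wild-type, at 154% of the wild-type level with a difference of 0.61, which does not pass the size rule. Its differences from wild-type were 0.06 in the library labelled dKO and -0.10 in the library labelled Gadd45-/-, so G3 Terc-/- stood apart from the other 3 libraries. No near-identical copy and no overlapping gene was found for Zwint in the annotations searched.

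**Figure D4:**
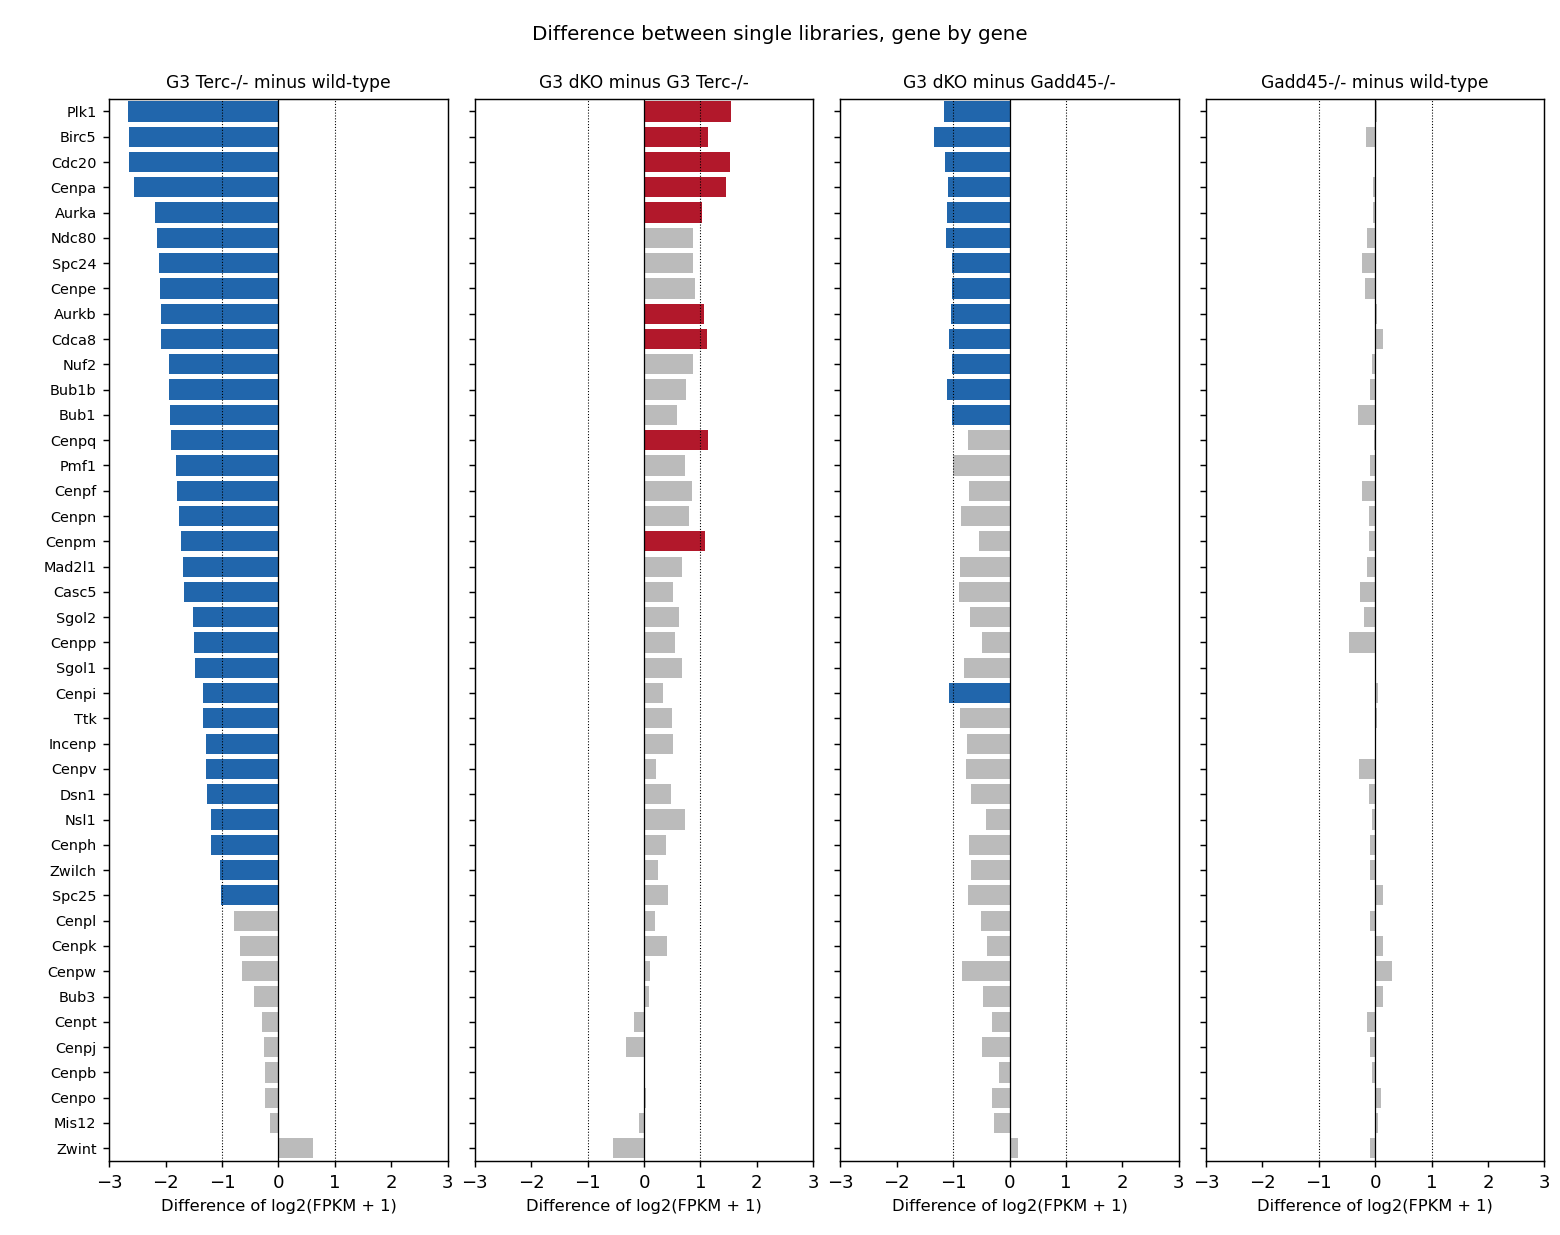
Difference of log2(FPKM + 1) for each of the 42 genes in 4 comparisons of single libraries, in the order of the first panel, with blue bars at -1 or less, red bars at 1 or more, grey bars between and dotted lines at the size rule. Blue bars number 32 in G3 Terc-/- minus wild-type and 14 in dKO minus Gadd45-/-, red bars number 9 in dKO minus G3 Terc-/-, and Gadd45-/- minus wild-type has grey bars only.

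Of 7 checkpoint genes 6 were lower in G3 Terc-/- than in wild-type, with a median of -1.69. Bub1, a kinase recruited early to KNL1, stood at 2.85 FPKM in the library labelled dKO, 1.57 FPKM in G3 Terc-/-, 6.82 FPKM in the library labelled Gadd45-/- and 8.69 FPKM in wild-type. Its relative Bub1b, encoding BUBR1 of the mitotic checkpoint complex, stood at 7.20 FPKM in the library labelled dKO, 3.91 FPKM in G3 Terc-/-, 16.7 FPKM in the library labelled Gadd45-/- and 17.8 FPKM in wild-type. Both were lower in the library labelled dKO than in the library labelled Gadd45-/- too, with differences of -1.02 and -1.11. Bub3, which carries both to the kinetochore, stood at 38.5 FPKM in the library labelled dKO, 36.1 FPKM in G3 Terc-/-, 53.8 FPKM in the library labelled Gadd45-/- and 49 FPKM in wild-type and was the checkpoint gene that did not pass the size rule in G3 Terc-/- (difference -0.43).

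Mad2l1, encoding the CDC20 inhibitor MAD2, stood at 9.52 FPKM in the library labelled dKO, 5.60 FPKM in G3 Terc-/-, 18.3 FPKM in the library labelled Gadd45-/- and 20.3 FPKM in wild-type, with a processed pseudogene matching 95.4% of 454 bases. Ttk, the kinase MPS1 that starts checkpoint signalling, stood at 2.17 FPKM in the library labelled dKO, 1.25 FPKM in G3 Terc-/-, 4.82 FPKM in the library labelled Gadd45-/- and 4.69 FPKM in wild-type. Zwilch, of the ROD-ZWILCH-ZW10 complex, stood at 4.49 FPKM in the library labelled dKO, 3.59 FPKM in G3 Terc-/-, 7.80 FPKM in the library labelled Gadd45-/- and 8.40 FPKM in wild-type, and with a difference of -1.03 was, after Spc25, the closest of the 32 lower genes to the size rule. The 6 checkpoint genes other than Cdc20 thus held between 18.1% and 73.7% of wild-type in G3 Terc-/-.

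Cdc20, the target of the checkpoint, stood at 28 FPKM in the library labelled dKO, 9.14 FPKM in G3 Terc-/-, 63 FPKM in the library labelled Gadd45-/- and 62.5 FPKM in wild-type. Its G3 Terc-/- level was 14.6% of wild-type, and the library labelled dKO held 3.07 times the G3 Terc-/- level. The ratio of Cdc20 to its inhibitor Mad2l1 was 2.94 in the library labelled dKO, 1.63 in G3 Terc-/-, 3.45 in the library labelled Gadd45-/- and 3.08 in wild-type. Target and inhibitor RNA therefore differed unequally between the libraries, with the lowest ratio in G3 Terc-/-.

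Both corona genes were lower in G3 Terc-/- than in wild-type and neither passed the size rule between the G3 libraries. Cenpe, a kinesin that carries chromosomes to the spindle equator, stood at 4.64 FPKM in the library labelled dKO, 2.01 FPKM in G3 Terc-/-, 10.4 FPKM in the library labelled Gadd45-/- and 12 FPKM in wild-type. Cenpf, a large protein of the outer corona, stood at 2.61 FPKM in the library labelled dKO, 1.01 FPKM in G3 Terc-/-, 4.94 FPKM in the library labelled Gadd45-/- and 6 FPKM in wild-type. Each held 16.8% of its wild-type level in G3 Terc-/-.

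All 4 genes of the chromosomal passenger complex, which releases faulty attachments, were lower in G3 Terc-/- than in wild-type, with a median of -2.08. Birc5, encoding survivin, stood at 18.9 FPKM in the library labelled dKO, 8.03 FPKM in G3 Terc-/-, 49.5 FPKM in the library labelled Gadd45-/- and 55.6 FPKM in wild-type and had the most negative difference of the 42 genes between the library labelled dKO and wild-type, -1.51. Aurkb, the kinase of the complex, stood at 8.32 FPKM in the library labelled dKO, 3.44 FPKM in G3 Terc-/-, 18.2 FPKM in the library labelled Gadd45-/- and 17.9 FPKM in wild-type. Cdca8, encoding borealin, stood at 11.5 FPKM in the library labelled dKO, 4.74 FPKM in G3 Terc-/-, 25.4 FPKM in the library labelled Gadd45-/- and 23.2 FPKM in wild-type. These 3 were also higher in the library labelled dKO than in G3 Terc-/-, with differences of 1.07 to 1.14.

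Incenp, the scaffold of the complex, stood at 12.6 FPKM in the library labelled dKO, 8.51 FPKM in G3 Terc-/-, 21.9 FPKM in the library labelled Gadd45-/- and 22.1 FPKM in wild-type, with smaller differences of -1.28 between G3 Terc-/- and wild-type and 0.51 between the G3 libraries. Unlike in the NDC80 complex, the levels of the 4 subunits stayed within a similar span: the highest was 2.27 times the lowest in the library labelled dKO, 2.47 times in G3 Terc-/-, 2.71 times in the library labelled Gadd45-/- and 3.11 times in wild-type. Birc5 was the highest in every library but G3 Terc-/-, where Incenp was.

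**Figure D5:**
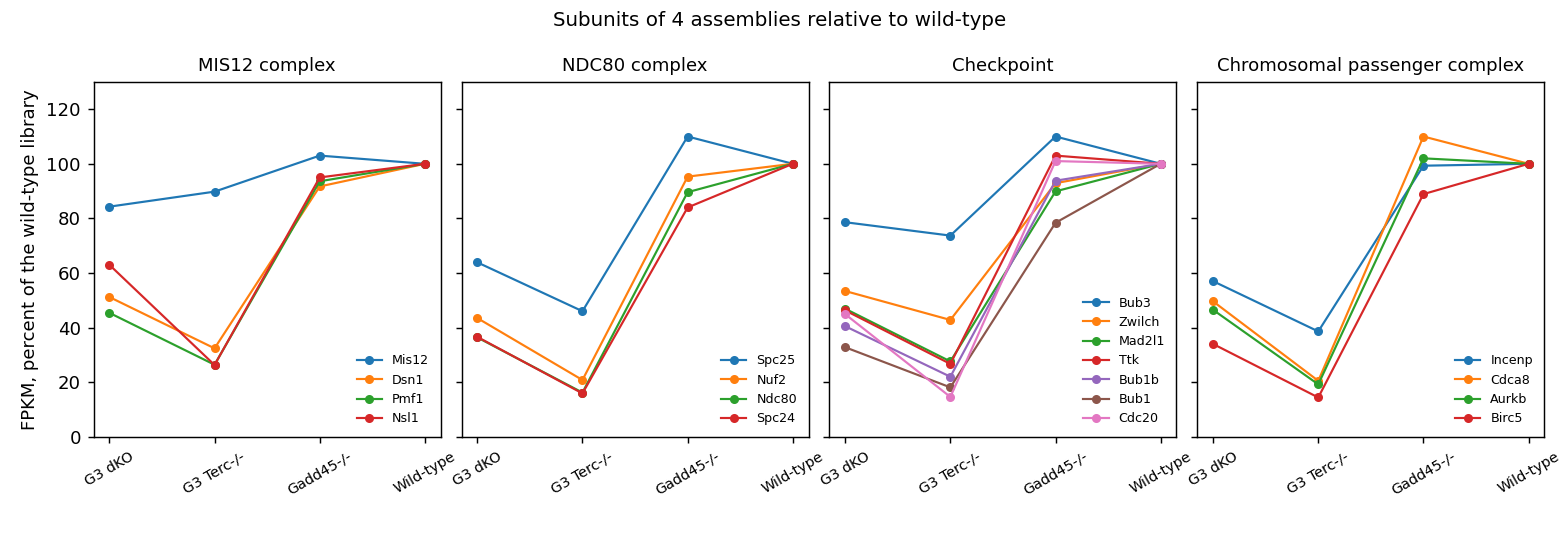
FPKM of each subunit as percent of the wild-type library, for the MIS12, NDC80 and chromosomal passenger complexes and the checkpoint genes, in the library labelled dKO, G3 Terc-/-, the library labelled Gadd45-/- and wild-type (set to 100%), with lines joining the values of 1 gene across single libraries. Mis12 (89.8% in G3 Terc-/-), Spc25 (46.0%), Bub3 (73.7%) and Incenp (38.6%) lie above their partners in G3 Terc-/-.

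The shugoshins, which shield centromeric cohesin until anaphase, were nearly equal to each other in each library. Sgol1 stood at 1.91 FPKM in the library labelled dKO, 0.82 FPKM in G3 Terc-/-, 4.13 FPKM in the library labelled Gadd45-/- and 4.09 FPKM in wild-type. Sgol2 stood at 1.99 FPKM in the library labelled dKO, 0.93 FPKM in G3 Terc-/-, 3.83 FPKM in the library labelled Gadd45-/- and 4.54 FPKM in wild-type, with 2363 bases shared with an annotated transcript of Kctd18 that make its value uncertain. Both held 20.0% to 20.5% of wild-type in G3 Terc-/-, and neither passed the size rule in a comparison with the library labelled dKO. Of 12 cohesin and separase genes 2 (16.7%, against 6.24% of all genes) were lower in G3 Terc-/- than in wild-type, separase Espl1 (0.81 FPKM in G3 Terc-/- against 5.28 FPKM in wild-type) and the cohesion factor Cdca5 (1.46 FPKM in G3 Terc-/- against 6.32 FPKM in wild-type). The separase inhibitor Pttg1, securin, was higher, at 39.8 FPKM in G3 Terc-/- against 13 FPKM in wild-type, and stood at 16.9 FPKM in the library labelled dKO and 16.1 FPKM in the library labelled Gadd45-/-.

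The mitotic kinases Plk1 and Aurka had large differences in both G3 comparisons. Plk1, which acts at centrosomes, kinetochores and in cytokinesis, stood at 14.6 FPKM in the library labelled dKO, 4.39 FPKM in G3 Terc-/-, 34 FPKM in the library labelled Gadd45-/- and 33.2 FPKM in wild-type. At 13.2% of wild-type in G3 Terc-/- it had the most negative difference of the 42 genes, -2.67, and also the most positive between the G3 libraries, 1.54. Aurka, the spindle pole kinase, stood at 12.2 FPKM in the library labelled dKO, 5.45 FPKM in G3 Terc-/-, 27.7 FPKM in the library labelled Gadd45-/- and 28.6 FPKM in wild-type. The level of each in the library labelled dKO was 43.0% to 44.2% of that in the library labelled Gadd45-/-.

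Outside the kinetochore, Cenpj, a centriole assembly gene, stood at 1.39 FPKM in the library labelled dKO, 1.97 FPKM in G3 Terc-/-, 2.33 FPKM in the library labelled Gadd45-/- and 2.56 FPKM in wild-type and was lowest in the library labelled dKO, as were Cenpb, Cenpt and Mis12. Cenpv, whose product has been described on chromosomes and on microtubules, stood at 2.66 FPKM in the library labelled dKO, 2.14 FPKM in G3 Terc-/-, 5.25 FPKM in the library labelled Gadd45-/- and 6.60 FPKM in wild-type, and was lower in G3 Terc-/- than in wild-type (difference -1.28). These genes belong to the 42 by their Cenp symbol alone.

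Factors beyond the 42 genes had a smaller median difference. Of 18 measured further kinetochore and checkpoint factors 8 (44.4%, against 6.24% of all genes) were lower in G3 Terc-/- than in wild-type. The median of the 18 was -0.98. Of these factors 1 was higher in the library labelled dKO than in G3 Terc-/-, against 1.52% of all genes. The microtubule depolymerase Kif2c stood at 6.14 FPKM in the library labelled dKO, 2.28 FPKM in G3 Terc-/-, 13.2 FPKM in the library labelled Gadd45-/- and 13.6 FPKM in wild-type. D2Ertd750e, now called Knstrn and encoding a spindle and kinetochore protein, stood at 4.14 FPKM in the library labelled dKO, 1.79 FPKM in G3 Terc-/-, 9.57 FPKM in the library labelled Gadd45-/- and 10.7 FPKM in wild-type. At the other end, Stra13, which encodes the histone-fold protein CENP-X, lay between 31.9 and 33.6 FPKM in all 4 libraries.

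The anaphase-promoting complex, the ubiquitin ligase that CDC20 activates, had 2 of 18 genes lower in G3 Terc-/- than in wild-type, with a median of -0.41. That is 11.1%, against 6.24% of all genes. They were its inhibitor Fbxo5 (0.95 FPKM in G3 Terc-/- against 9.07 FPKM in wild-type) and its ubiquitin-conjugating enzyme Ube2c (16.5 FPKM in G3 Terc-/- against 79.2 FPKM in wild-type). Between the library labelled dKO and that same G3 Terc-/- library, Fbxo5 had a difference of 1.37 and Ube2c of 1.11. Core subunits such as Anapc2, at 52.2 FPKM in G3 Terc-/- and 48.7 FPKM in wild-type, and Anapc10, at 2.98 FPKM in G3 Terc-/- and 2.80 FPKM in wild-type, were near their wild-type level.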

How the data were processed

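The authors deposited FPKM values with 1 value per gene symbol in each of 4 libraries. Per the submitters' processing notes, which give no roles, TopHat2 2.1.1, Cufflinks 2.2.1 and build mm9 were used, and the annotation, strand setting and filters are not given in the sources used here. The genes and lists described were chosen with earlier results of these data known.

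From these values, 736 short non-coding symbols were left out and 22499 compared. Differences of log2(FPKM + 1) were taken between single libraries in 5 comparisons. The pseudocount of 1 FPKM shrinks the differences of weakly expressed genes. A gene counted as higher at 1 or more and as lower at -1 or less. Shares over all genes use the 11589 with a mean of 1 FPKM or more. Every one of the 42 genes is named, and of the other lists the 2 with the largest difference each way between G3 Terc-/- and wild-type are eligible, apart from a gene that is not reported here. No test was possible with 1 library per genotype.

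Depth was estimated from the steps between low FPKM values (up to 0.05, on single-transcript genes of 1500 to 8000 nt, fragment length 200 nt). Between 76.6% and 77.7% of 364 to 400 such values stood for a whole number of fragments within 0.1, a share that the estimate itself was chosen to raise. In G3 Terc-/- the 42 genes then stand for 14 to 8445 fragments, with a median of 114. In GRCm38 annotations 13 of the 42 genes overlap another gene, and 6 match another gene's transcript over 300 nt or more at 95% identity or more, so fragments may be divided between them. Symbols were matched to RefSeq by name or synonym for all 42 genes. The steps were tested on simulated data, and tables and figures were made with Python 3.11.15, numpy 2.4.6, pandas 2.3.3 and matplotlib 3.10.9.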

Additional observations from a re-analysis of the deposited data

Results flagged for a closer look

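For 10 of the 42 genes the 2 comparisons of Gadd45a labels had opposite signs and differed from each other by 1 or more on the log2(FPKM + 1) scale. Each was higher in the library labelled dKO than in G3 Terc-/- and slightly lower in the library labelled Gadd45-/- than in wild-type. The second difference ran from -0.46 for Cenpp, whose value is uncertain, to -0.01 for Cenpq, so the opposite signs rest on small values. How many of all 11589 genes meet both conditions was not counted. The first difference less the second was 1.48 for Cenpa, 1.31 for Birc5, 1.18 for Cenpm, 1.15 for Cenpq, 1.10 for Spc24, 1.09 for Cenpe, 1.08 for Aurka, 1.08 for Cenpf, 1.01 for Ndc80 and 1.01 for Cenpp. With 1 library per genotype these differences between comparisons were not tested. For Cdc20, Plk1 and Aurkb the same quantity was 1.51, 1.50 and 1.04 with both comparisons positive, the second only at 0.01, 0.04 and 0.03. Over the 42 genes its median was 0.79, with 13 at 1 or more and none at -1 or less. Among all 11589 genes 223 reached 1 and 684 reached -1. The library labelled Gadd45-/- also differed from the others in sex-linked RNA (Ddx3y at 16.4 FPKM and Xist at 0.154 FPKM), whose part was not tested.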

How the results depend on the processing

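Counts and medians were recomputed under 8 alternatives, and 100 of 115 recomputed values stayed within 1.5 times of the reported one, or for medians within 0.1. The 100 include counts of 0 that stayed at 0. They also include every value without the filter on low values, which all 42 genes pass. The share is therefore no measure of how stable the other counts are. A pseudocount of 5 FPKM shrinks differences of low genes. It gave 16 genes lower in G3 Terc-/- than in wild-type (median -0.77), against 2.84% of all genes. In the library labelled dKO 3 were then higher than in G3 Terc-/- (median 0.26), against 0.613% of all genes. In that library 2 were lower than in the library labelled Gadd45-/- (median -0.45), against 0.725%, and 2 lower than in wild-type (median -0.51), against 1.1%. A pseudocount of 0.1 FPKM gave 19 higher in the library labelled dKO than in G3 Terc-/-, against 2.97% of all genes. A minimum mean of 5 FPKM kept 23 of the 42 genes, of which 18 were lower in G3 Terc-/-, against 6.15% of the 8481 genes then compared. A size rule of 0.5 gave 1 gene higher in G3 Terc-/- than in wild-type, Zwint, against 21.9% of all genes. By that rule 25 were higher and 1 lower in the library labelled dKO than in G3 Terc-/-, against 8.1% and 13.3%. In the library labelled dKO 32 were lower than in the library labelled Gadd45-/-, against 10.4%, and 34 lower than in wild-type, against 12.6%. Median-of-ratios scaling, quantile normalization and leaving out Cenpb, Cenpj and Cenpv moved none of these counts and medians that far. Without the filter on low values the counts and medians could not move. A pseudocount cannot change the sign of a difference. Size factors of 0.98 to 1.04 are too close to 1 to reverse a called one. No called difference of a single gene changed sign with quantile normalization. Over the 5 comparisons, 49 called single-gene differences fell short of the size rule with 5 FPKM, and 24 more passed it with 0.1 FPKM. With median-of-ratios scaling 3 fell short and 1 more passed, and with quantile normalization 3 and 4. Zwint stayed at 0.56 to 0.62 in G3 Terc-/- minus wild-type. Pmf1, at -0.999 in the library labelled dKO minus the library labelled Gadd45-/-, lay just short of the size rule and passed it with median-of-ratios scaling (-1.01). Leaving out a library removes a genotype, so it was not run. At these depths a gene such as Cenpp, with an estimated 14 fragments in G3 Terc-/-, has a large counting error.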
